A study of Homo sapiens with 12 samples.

Results

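The expression of 7 genes of the epidermal growth factor (EGF) receptor family was followed in HCT116 cells moved from 21% to 1% O2. Of these, 4 encode ligands, namely AREG (amphiregulin), EREG (epiregulin), TGFA (transforming growth factor alpha) and HBEGF (heparin-binding EGF-like growth factor), and 3 encode the receptors EGFR, ERBB2 and ERBB3. HCT116 cells are an established line of human colorectal cancer. Polyadenylated RNA was sequenced from cells kept in 21% O2 (0 h) and from cells kept in 1% O2 for 1, 2 or 24 h, with 3 replicates at each time and 12 libraries in total. The labels give no other treatment or genetic change and call the replicates biological. Hypoxia began 24 h after plating, and the labels do not say whether the 0 h cells were collected then or later, so that time in culture and oxygen cannot be told apart at 24 h. The members were found by gene name: the FPKM (mapped fragments per kilobase of transcript length and per 1000000 fragments of the library) of every transcript that carried the name, and that matched a reference transcript (class =) or shared a splice junction with one (class j), was summed. Such transcripts were found for 7 of 7 genes, 100 of 286562 in the whole table. The 7 genes were all among the 16680 of 56537 gene names with a summed FPKM above 0.5 in at least 3 libraries.

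EGF-like ligands are made as membrane-anchored precursors, and metalloproteases such as ADAM17 cut them loose at the cell surface. The ligands of this set bind EGFR, which then pairs with itself or with ERBB2 or ERBB3 and signals through the RAS-ERK and PI3-kinase pathways. ERBB2 has no known ligand and serves as the preferred partner of the other receptors, whereas ERBB3 has a weak kinase and binds neuregulins. In colorectal cancer AREG and EREG are known as the ligands whose expression is read together with response to anti-EGFR antibodies.

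The treatment was checked with known targets of hypoxia. Carbonic anhydrase 9 (CA9), VEGFA, NDRG1 and ANKRD37 were higher at 24 h than at 0 h by 3.13, 1.90, 5.34 and 5.45 on the log2(FPKM + 0.5) scale, and all 4 passed the call defined below. Of 8 epithelial markers, 7 passed the filter on low values, and their sum was 2006 to 2829 FPKM at 0 h and 2497 to 2736 FPKM at 24 h, while VIL1 (villin) lay at or below 0.048 FPKM. Among them CDH1 (E-cadherin) was called higher at 24 h by 1.76, and by the looser rule given below KRT19 was higher by 0.99 (adjusted p = 1.66e-05) and KRT20, from a mean of 0.477 to 0.064 FPKM, was lower by −0.79 (adjusted p = 0.00144), as was CDX2 by −0.39 (adjusted p = 0.0302). Of 4 leukocyte markers, 4 fibroblast markers and 3 endothelial markers, CD68 and COL1A1 alone passed the filter, and both were called higher at 24 h, by 2.04 (adjusted p = 1.41e-05) and 1.59 (adjusted p = 1.99e-05). The leukocyte sum was 1.80 to 2.31 FPKM at 0 h and 6.98 to 14.2 FPKM at 24 h and was almost wholly CD68, with PTPRC at or below 0.0095 FPKM. The fibroblast sum was 1.85 to 2.16 FPKM at 0 h and 5.81 to 8.84 FPKM at 24 h, and PECAM1 was listed at 0 in all 12 libraries. The part of these markers in the results was not tested. Very short transcripts (under 300 bases) held 56.953% to 70.374% of all FPKM in the 0 h libraries and 64.889% to 87.645% in the hypoxic libraries, which bears on any rescaling of the values.

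Each member was compared between times in a fit with limma across all 16680 genes, on log2(FPKM + 0.5), where the change of low genes is understated. A gene was called where it changed by more than 1 on this scale, in either direction, with an adjusted p under 0.01, and an adjusted p under 0.05 with no limit on the fold was read as a second, looser rule. At 1 h none of the 7 members was called by either rule, against 0.006% of all genes by the stricter rule and 0.006% by the looser rule. At an unadjusted p under 0.05, 769 of the 16680 genes passed at 1 h, fewer than would be expected at that limit if no gene had changed. At 2 h none was called by the stricter rule, which called 3 (0.018%) of all genes and none of them in 4 of the 6 fits that left out a library, and AREG passed the looser rule, which 0.312% of all genes passed. At 24 h AREG, TGFA and EGFR were called higher, 3 of 7 members, where 18.3% of all genes were called in either direction, 8.76% were called higher and 55.3% passed the looser rule. Between 2 h and 24 h TGFA and EGFR were called higher, where 14.7% of all genes were called. By the looser rule AREG was also higher and EREG lower at 24 h than at 2 h, where 50.6% of all genes passed, and both missed it with TPM (adjusted p = 0.365 and 0.574). All comparisons against 0 h share the same 3 control libraries.

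The median log2 fold change of the members was 0.11 at 1 h, 0.31 at 2 h and 0.33 at 24 h against 0 h, beside −0.0071, −0.018 and −0.051 for all genes tested. All 3 libraries lay above all 3 at 0 h for 2 members at 1 h (AREG and EREG), for 3 at 2 h (with TGFA) and for 4 at 24 h (AREG, TGFA, EGFR and HBEGF). Across all genes that held for 6.36% at 1 h, 12.2% at 2 h and 27.6% at 24 h. Rescaling each library to a common sum (TPM) ended the calls of AREG, TGFA and EGFR at 24 h, which then stood at 0.52, 0.75 and 0.42 (log2), turned those of EREG, HBEGF, ERBB2 and ERBB3 below 0, and moved the median of all genes to −0.67 and their calls to 215 higher and 3893 lower, from 1462 and 1586. Relative to that median, AREG, TGFA and EGFR stood at 1.20, 1.43 and 1.10. With TPM taken over the transcripts of 300 bases or more the 3 calls were made, at 1.31, 1.45 and 1.21.

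**Figure D1:**
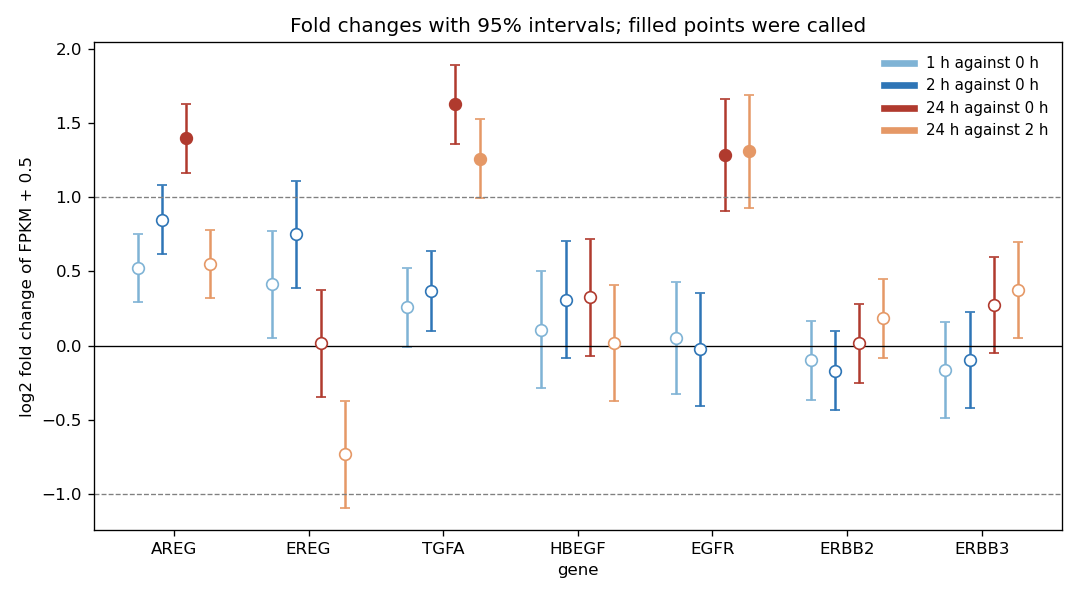
Log2 fold changes of FPKM + 0.5 (vertical axis) for the 7 genes (horizontal axis) in 4 comparisons, with 95% intervals from limma. Filled points were called, beyond the dashed lines at 1 and −1 with an adjusted p under 0.01: AREG, TGFA and EGFR at 24 h against 0 h, and TGFA and EGFR at 24 h against 2 h. With TPM none of the 7 passed in these comparisons.

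In cells at 21% O2 the members spanned a wide range of levels per transcript length. AREG had the highest mean, 165 FPKM, and ranked above 95.9% of the genes tested, followed by EREG at 132 FPKM. ERBB2 (19.5 FPKM), TGFA (15.97 FPKM), EGFR (8.50 FPKM), ERBB3 (7.62 FPKM) and HBEGF (4.11 FPKM) came next. Neighbours in this order had libraries that did not overlap, except EGFR and ERBB3. At 24 h the order was AREG (437 FPKM), EREG (136 FPKM), TGFA (50.6 FPKM), EGFR (21.8 FPKM), ERBB2 (19.8 FPKM), ERBB3 (9.36 FPKM) and HBEGF (5.25 FPKM). EGFR and ERBB2 were the only neighbours whose libraries overlapped at 24 h. TGFA passed ERBB2, and EGFR parted from ERBB3 and reached the level of ERBB2.

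**Figure D2:**
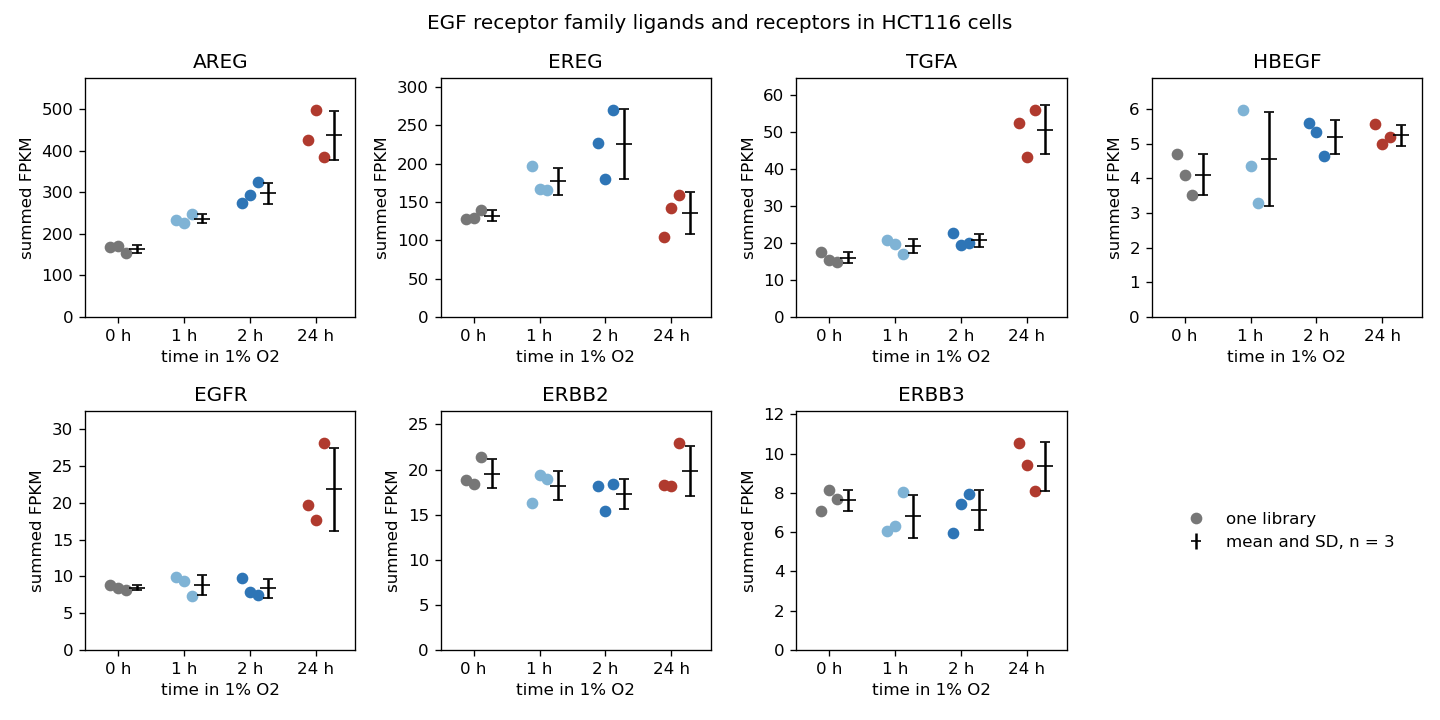
Summed FPKM (vertical axis, from 0, each panel with its own scale) of the 7 genes at 0, 1, 2 and 24 h in 1% O2 (horizontal axis); points are the 3 libraries of a time and the cross bar and whiskers are mean and SD. In FPKM, AREG was higher at each later time and EREG was highest at 2 h, and under TPM both turned below 0 h at 1 h and 2 h. With TPM taken over transcripts of 300 bases or more, AREG stood at 0.52 and 0.84 (log2) at these times and EREG at 0.41 and 0.74. EREG lay at 136 FPKM at 24 h against 132 FPKM at 0 h, and TGFA and EGFR stood apart at 24 h.

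AREG, the most abundant ligand, lies on chr4:75310853-75320722 of hg19, plus strand. Its 3 libraries had 169, 171 and 154 FPKM at 0 h. They had 234, 227 and 249 FPKM at 1 h, and 275, 293 and 324 FPKM at 2 h. At 24 h they had 427, 499 and 384 FPKM. The libraries of the 4 times did not overlap, and each later time lay above the earlier. The log2 fold change against 0 h was 0.52 ± 0.11 (SE) at 1 h with an adjusted p of 0.65 from limma. At 2 h it was 0.85 ± 0.11 with an adjusted p of 0.010014, just outside the stricter limit on p and below its limit on the fold. Without any 1 of the 0 h replicates the adjusted p lay between 0.0522 and 0.0634, past the looser limit, and under TPM the 2 h value turned to −0.24, or 0.64 relative to the median of all genes. With TPM taken over transcripts of 300 bases or more the 2 h value was 0.84. At 24 h AREG rose by 1.40 ± 0.11, with a 95% interval of 1.17 to 1.63 and an adjusted p of 1.08e-06, which is 2.64-fold. From 2 h to 24 h it was higher by 0.55 ± 0.11 with an adjusted p of 0.00105. Under TPM this value was 0.77 with an adjusted p of 0.365. A single coding transcript, ENST00000395748, carried 92.9% of AREG FPKM at 0 h and 94.1% at 24 h.

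A near-identical copy of AREG, AREGB, is annotated at chr4:75480629-75490486 of hg19, plus strand. Of the 1135 stretches of 100 bases in the AREG reference transcript, 1035 (91.189%) occur unchanged in that of AREGB, so that reads of this length from the copies cannot be told apart in most of the gene. AREGB had 79.3 to 91.8 FPKM at 0 h and 186 to 256 FPKM at 24 h, and was called higher by 1.32 ± 0.13 with an adjusted p of 4.82e-06. In the 12 libraries the ratio of AREGB to AREG lay between 0.481 and 0.548. With the copies summed, AREG rose by 1.37 at 24 h. RefSeq lists AREGB as another name of AREG. The copies together had 251 ± 16.04 FPKM (SD, n = 3) at 0 h and 655 ± 93 FPKM at 24 h. How the fragments were divided between the copies was not tested.

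EREG, which lies next to AREG at chr4:75230862-75254466 of hg19, plus strand, encodes epiregulin, a ligand of EGFR and ERBB4. Its libraries had 128, 129 and 140.15 FPKM at 0 h. They had 197, 167 and 166 FPKM at 1 h, and 228, 179.5 and 271 FPKM at 2 h. At 24 h they had 105, 142.5 and 159.65 FPKM. The libraries at 1 h and 2 h lay above those at 0 h, and those at 24 h overlapped the 0 h libraries and lay below all 3 of 2 h. The log2 fold change against 0 h was 0.41 ± 0.17 at 1 h (adjusted p = 0.996) and 0.75 ± 0.17 at 2 h (adjusted p = 0.0862, or 0.0469 with the replicate number as a block). Under TPM these values turned to −0.22 and −0.34, or 0.31 and 0.54 relative to the median of all genes. With TPM taken over transcripts of 300 bases or more they were 0.41 and 0.74. At 24 h the log2 fold change against 0 h was 0.015 ± 0.17, with a 95% interval of −0.35 to 0.38 and an adjusted p of 0.947. Between 2 h and 24 h EREG was lower by a log2 fold change of −0.74 ± 0.17, with an interval of −1.10 to −0.37 and an adjusted p of 0.00283. Under TPM this value was −0.51 with an adjusted p of 0.574. The level of AREG over EREG was thus 1.25 ± 0.13 (SD, n = 3) in normoxia, 1.35 ± 0.16 after 1 h, 1.34 ± 0.25 after 2 h and 3.33 ± 0.84 after 24 h, and the 24 h ratios (2.41 to 4.07) lay above all the others. With the copies AREG and AREGB summed the ratio was 1.90 ± 0.21 in normoxia, 2.04 ± 0.28 after 1 h, 2.02 ± 0.38 after 2 h and 4.99 ± 1.3 after 24 h, and the 24 h ratios (3.58 to 6.10) again lay above the others. Both ratios were formed after the levels were seen and were not tested.

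Because AREG and EREG are neighbours on the same strand whose levels parted at 24 h, the 250 bases before their starts are shown, from RefSeq on GRCh38.p14, with those of TGFA and EGFR that held a searched motif. Capitals mark matches, on either strand, to the hypoxia response element cores ACGTG and GCGTG (reverse complements CACGT and CACGC), to the cyclic AMP response element TGACGTCA, which is its own reverse complement, and to the AP-1 element TGACTCA, whose reverse complement is TGAGTCA. The matches do not overlap.
AREG chr4:74444886-74445135, plus strand: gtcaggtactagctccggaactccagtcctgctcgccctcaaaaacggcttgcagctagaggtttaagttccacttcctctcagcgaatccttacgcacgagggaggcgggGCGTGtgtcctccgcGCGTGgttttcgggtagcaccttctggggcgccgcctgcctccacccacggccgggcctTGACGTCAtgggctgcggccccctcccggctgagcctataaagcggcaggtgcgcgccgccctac
EREG chr4:74364895-74365144, plus strand: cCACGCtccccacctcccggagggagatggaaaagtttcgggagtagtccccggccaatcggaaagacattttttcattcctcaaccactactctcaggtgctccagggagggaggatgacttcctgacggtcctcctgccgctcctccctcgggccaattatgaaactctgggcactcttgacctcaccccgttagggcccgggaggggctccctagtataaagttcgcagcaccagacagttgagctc
TGFA start 2 chr2:70553447-70553696, minus strand: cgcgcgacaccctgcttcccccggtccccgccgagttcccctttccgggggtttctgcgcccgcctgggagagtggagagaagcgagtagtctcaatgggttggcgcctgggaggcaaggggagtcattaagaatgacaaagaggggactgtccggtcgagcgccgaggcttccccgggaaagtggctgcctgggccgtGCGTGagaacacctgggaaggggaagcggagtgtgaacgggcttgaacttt
EGFR start 2 chr7:55109589-55109838, plus strand: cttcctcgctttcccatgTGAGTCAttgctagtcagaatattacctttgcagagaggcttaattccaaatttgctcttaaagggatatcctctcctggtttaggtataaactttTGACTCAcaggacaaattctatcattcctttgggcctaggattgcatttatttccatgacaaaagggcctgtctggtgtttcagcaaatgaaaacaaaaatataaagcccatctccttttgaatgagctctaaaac
The AREG sequence held GCGTG at 139 and 124 bases before the start and TGACGTCA at 65. The EREG sequence held GCGTG on the reverse strand, at 249 bases before the start, and no match to the other motifs. TGFA start 2 held GCGTG at 51 bases before the start, and EGFR start 2 held the AP-1 element at 232 and 136. No match lay in the same window of TGFA start 1, HBEGF, EGFR start 1 or ERBB2. The window of EGFR start 1 lay at chr7:55018767-55019016, upstream of start 2 on the plus strand. All coding EGFR transcripts with FPKM above 0 shared a single start. Which of the RefSeq starts the TGFA and EGFR transcripts used was not tested. The RefSeq table held 8 such sequences for 6 of the 7 members, ERBB3 being the member without an entry. Over the 35116 promoters of the table, 32.2% held GCGTG, 18.5% ACGTG, 43.2% either core, 1.65% TGACGTCA and 4.20% TGACTCA. A match describes the letters only.

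TGFA, on chr2:70674416-70781325 of hg19, minus strand, encodes a high-affinity ligand of EGFR. Its libraries had 17.6, 15.5 and 14.7 FPKM at 0 h. They had 20.8, 19.8 and 17.1 FPKM at 1 h, and 22.7, 19.4 and 20.1 FPKM at 2 h. At 24 h they had 52.4, 43.2 and 56.1 FPKM, above every library of the earlier times. TGFA had log2 fold changes of 0.26 ± 0.12 at 1 h (adjusted p = 0.996) and 0.37 ± 0.12 at 2 h (adjusted p = 0.209). Under TPM these values turned to −0.34 and −0.66, and with TPM taken over transcripts of 300 bases or more they were 0.26 and 0.36. At 24 h TGFA rose by 1.63 ± 0.12, with a 95% interval of 1.36 to 1.90 and an adjusted p of 1.03e-06, which is 3.09-fold. It rose between 2 h and 24 h by 1.26 ± 0.12 (adjusted p = 7.31e-06). The transcript ENST00000295400 carried 12.9 FPKM at 0 h and 33.8 FPKM at 24 h, and 2 transcripts assigned to ENST00000418333 carried most of the rest. A noncoding transcript of 147 bases was listed at 9.84 FPKM in a single library, 24 h replicate 3, and at 0 in the other 11.

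HBEGF, on chr5:139712428-139726188 of hg19, minus strand, encodes a ligand that also binds heparan sulphate and ERBB4. Its libraries had 4.72, 4.11 and 3.51 FPKM at 0 h, and 5.99, 4.37 and 3.31 FPKM at 1 h. They had 5.61, 5.33 and 4.65 FPKM at 2 h, and 5.58, 4.98 and 5.20 FPKM at 24 h. The 24 h libraries lay above those at 0 h, although the means differed little. The log2 fold change at 24 h was 0.33 ± 0.18, with a 95% interval of −0.068 to 0.72 and an adjusted p of 0.147, so that a change of up to 1.65-fold was within the interval.

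Taking the ligands as a pool, their summed level was 317 ± 4.5 FPKM (SD, n = 3) in normoxia, 437 ± 20 FPKM after 1 h, 549 ± 63 FPKM after 2 h and 628 ± 54 FPKM after 24 h. Under TPM the log2 fold change of each of the 4 ligands was below 0 at 1 h and 2 h. With TPM taken over transcripts of 300 bases or more each was above 0 at both times. AREG made up 51.9% of the summed level at 0 h and 54.3% at 2 h, and 69.4% at 24 h. The share of EREG was 41.8% at 0 h, 40.9% at 2 h and 21.6% at 24 h. TGFA made up 5.03% at 0 h, 3.81% at 2 h and 8.14% at 24 h, and HBEGF 1.295%, 0.960% and 0.842%. No AREG or EREG share at 24 h overlapped those of the earlier times, which overlapped each other. The TGFA and HBEGF shares at 2 h lay below those at 0 h, and the HBEGF shares at 24 h overlapped those at 1 h and 2 h. With AREGB added to AREG, the pool was 404 ± 11 FPKM at 0 h and 847 ± 85 FPKM at 24 h, AREG with its copy made up 62.2% at 0 h and 77.2% at 24 h, and EREG 32.8% and 16.1%. These shares were not tested, and those with AREGB were added after the data were seen.

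**Figure D3:**
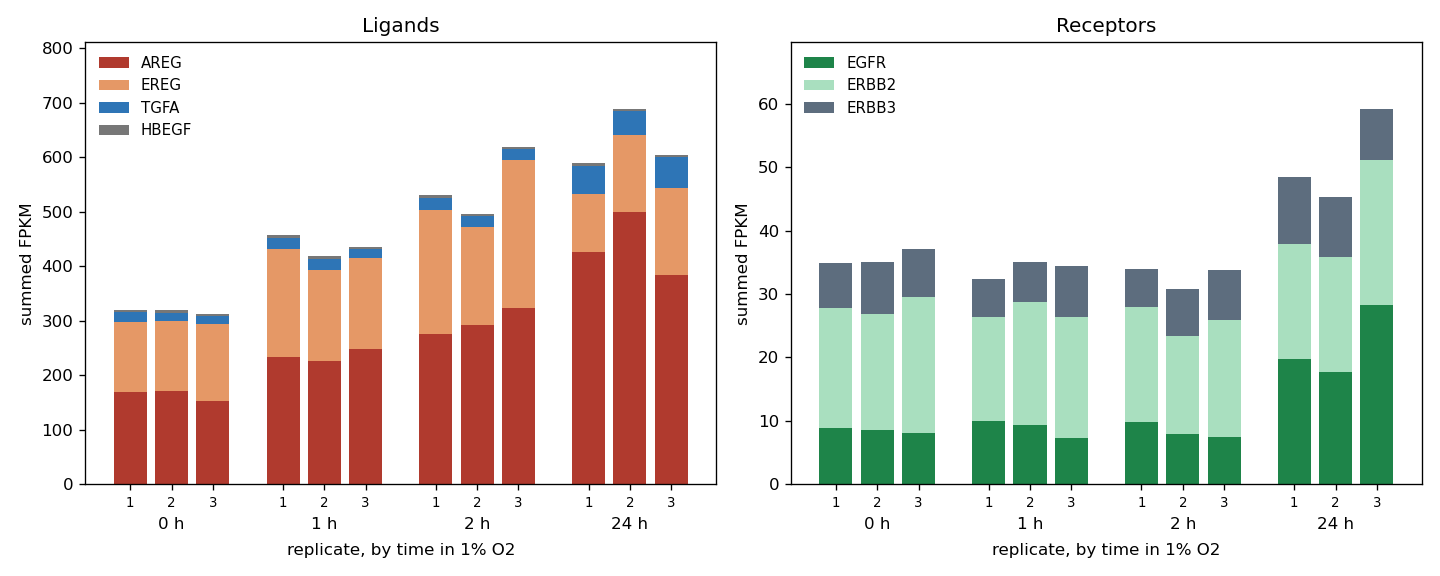
Summed FPKM (vertical axes, from 0) of the 4 ligand genes (left) and the 3 receptor genes (right) in each of the 12 libraries, grouped by time in 1% O2 and numbered by replicate. AREG took 63.5% to 72.4% of the ligand sum at 24 h, and EGFR took 39.0% to 47.6% of the receptor sum at 24 h against 21.9% to 25.5% at 0 h.

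Among the receptors, EGFR (chr7:55086710-55279321 of hg19, plus strand), the receptor of all the ligands in this set, was the gene called at 24 h. Its libraries had 8.90, 8.48 and 8.13 FPKM at 0 h. They had 9.98, 9.35 and 7.35 FPKM at 1 h, and 9.80, 7.94 and 7.42 FPKM at 2 h. At 24 h they had 19.7, 17.6 and 28.2 FPKM. The early times overlapped each other, and every 24 h library lay above them. EGFR had log2 fold changes of 0.052 ± 0.17 at 1 h and −0.026 ± 0.17 at 2 h, with 95% intervals of −0.33 to 0.43 and −0.40 to 0.35. At 24 h EGFR rose by 1.28 ± 0.17, with an interval of 0.91 to 1.66 and an adjusted p of 6.49e-05, which is 2.44-fold. Without 24 h replicate 3, the highest library, the change was 1.09 and was called.

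ERBB2 (chr17:37844167-37886679 of hg19, plus strand) had 18.9, 18.4 and 21.4 FPKM at 0 h and 16.3, 19.3 and 19.0 FPKM at 1 h. It had 18.2, 15.4 and 18.4 FPKM at 2 h, and 18.3, 18.2 and 23.0 FPKM at 24 h. The libraries of all times overlapped those at 0 h. The log2 fold change at 24 h was 0.015 ± 0.12 (adjusted p = 0.930), and its 95% interval of −0.25 to 0.28 leaves room for changes between 0.839-fold and 1.22-fold. ERBB3 (chr12:56470583-56497289 of hg19, plus strand) had 7.06, 8.14 and 7.67 FPKM at 0 h and 6.04, 6.32 and 8.03 FPKM at 1 h. It had 5.98, 7.44 and 7.94 FPKM at 2 h, and 10.6, 9.44 and 8.07 FPKM at 24 h. The 24 h libraries overlapped those at 0 h by a single library and lay above those at 2 h. The log2 fold change of ERBB3 was 0.27 ± 0.15 at 24 h against 0 h (adjusted p = 0.139) and 0.37 ± 0.15 against 2 h (adjusted p = 0.0532). The summed level of the 3 receptors was 35.7 ± 1.3 FPKM (SD, n = 3) at 0 h and 51.0 ± 7.3 FPKM at 24 h. Under TPM the log2 fold changes at 24 h were 0.42 for EGFR, −0.80 for ERBB2 and −0.49 for ERBB3. With TPM taken over transcripts of 300 bases or more they were 1.21, −0.077 and 0.16. EGFR made up 23.9% of the summed level at 0 h and 42.4% at 24 h, and ERBB2 54.7% and 38.9%.

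Because the series was made to follow splicing, the transcripts of the members were also grouped by type. Of the 100 transcripts, 81 carried a type in GENCODE release 44: 35 were noncoding (retained intron, nonsense-mediated decay or no coding sequence), 34 were long coding, with at least 50% of the gene's longest coding sequence, and 12 were short coding. In AREG, EREG, TGFA and HBEGF long coding transcripts carried at least 92.867% of the mean 0 h level, and in EGFR they carried 94.6%. The noncoding share of EGFR was 1.26% to 5.56% at 0 h and at most 0.885% at 24 h, and that of EREG was 1.08% to 1.98% at 0 h and 0.476% to 0.942% at 24 h. For both, the two-sided exact permutation test gave p = 0.1, the smallest p that 3 libraries against 3 can give, so that this test cannot tell whether these shares differed. TGFA gave p = 0.7, ERBB2 p = 0.2, AREG p = 0.9, and HBEGF and ERBB3 p = 1 by the same exact test, over 7 genes and without adjustment.

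ERBB3 had the highest mean noncoding share of the members at 0, 2 and 24 h, whereas at 1 h ERBB2 had a higher one (7.81%). In ERBB3 this share was 26.6% (18.5% to 32.3%) in normoxia, 5.97% (1.74% to 8.17%) after 1 h, 11.0% (3.57% to 23.4%) after 2 h and 26.8% (17.8% to 31.5%) after 24 h. The 1 h libraries lay below those at 0 h and at 24 h, while the 2 h libraries overlapped both. The retained-intron transcript ENST00000546884 of ERBB3 had 1.28, 1.73 and 0.832 FPKM at 0 h, and 0.184 FPKM in a single library at 1 h, being listed at 0 in the other 2. The full-length coding transcript ENST00000267101 had a mean of 3.80 FPKM at 0 h, 4.22 FPKM at 1 h and 5.25 FPKM at 24 h. In ERBB2 a coding transcript, ENST00000541774, had 4.53, 1.26 and 2.57 FPKM at 0 h, at most 0.428 FPKM in the 6 libraries of 1 h and 2 h, and 5.13, 1.55 and 0.399 FPKM at 24 h. Another, ENST00000540147, carried 53.3% of ERBB2 FPKM at 0 h and 76.2% at 2 h but has no type in the release used, so the noncoding share of ERBB2 leaves out much of its RNA. Untyped transcripts held 41.7% to 80.2% of ERBB2 over the libraries. These transcript levels were singled out after their values were seen and were not tested.

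**Figure D4:**
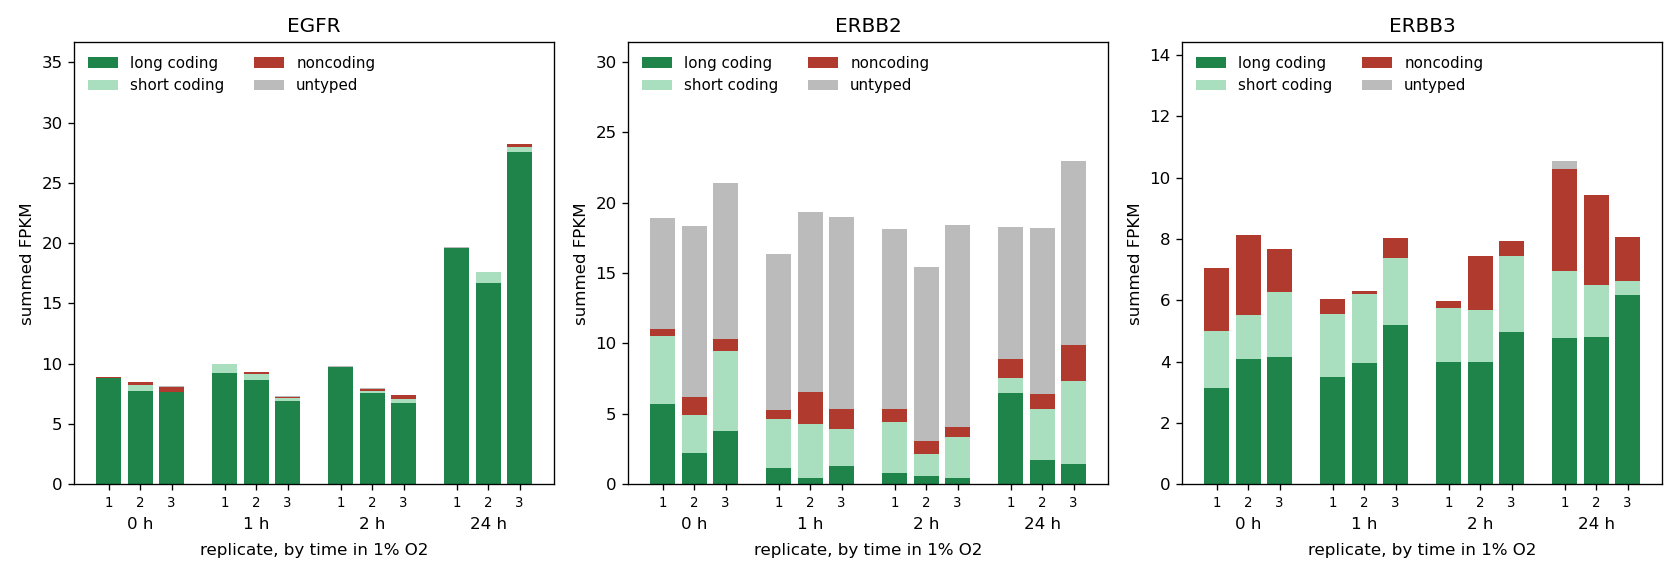
Summed FPKM (vertical axes, from 0) of EGFR, ERBB2 and ERBB3 in each of the 12 libraries, stacked by the type of transcript in GENCODE release 44, with untyped transcripts in grey. EGFR was almost wholly long coding, ERBB2 was untyped for 41.7% to 80.2%, and the noncoding part of ERBB3 was 26.6% at 0 h, 5.97% at 1 h and 26.8% at 24 h.

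The other 8 genes of the family lay below the members, except NRG1, whose range over the 12 libraries overlapped that of HBEGF. ERBB4, the remaining receptor, did not exceed 0.010 FPKM, NRG3 was listed at 0 in all libraries, and EGF itself lay between 0.049 and 0.436 FPKM. EPGN lay at or below 0.353 FPKM and NRG2 between 0.082 and 0.556 FPKM. NRG1, a ligand of ERBB3, had 3.67 ± 0.84 FPKM (SD, n = 3) at 0 h and 4.02 ± 0.63 FPKM at 24 h. BTC (betacellulin) had 1.44 ± 0.41 and 1.03 ± 0.29 FPKM, and NRG4 had 0.625 ± 0.41 and 0.848 ± 1.1 FPKM. The NRG4 mean at 24 h was carried by a single library, with 0.278, 0.185 and 2.08 FPKM in the 3 replicates. The 3 genes that passed the filter, NRG1, BTC and NRG4, were called at no time. Of 7 genes of ligand release, 5 were tested and 1 was called at 24 h, against 18.3% of all genes. RHBDF1, which encodes an inactive rhomboid that guides ADAM17 to the cell surface, had 2.101, 2.07 and 2.25 FPKM at 0 h and 8.53, 5.17 and 4.45 FPKM at 24 h, and rose by 1.26 ± 0.19 (adjusted p = 1.45e-04). The most abundant of the list, ADAM10, a metalloprotease that sheds EGF and betacellulin, had 40.6 ± 4.4 FPKM (SD, n = 3) at 0 h and 69.6 ± 14 FPKM at 24 h, a log2 fold change of 0.76 that passed the looser rule (adjusted p = 5.68e-04). ADAM17, added after its values were seen, changed by 0.57 (adjusted p = 4.38e-04). By the looser rule, which 55.3% of all genes passed and by which 25% were higher, 4 of the 5 were higher and 1 lower, and their median was 0.57.

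Among 15 adaptors and signal relay genes, all tested, 1 was called at 24 h (6.67%, below the 18.3% of all genes). This was GAB1, a docking protein that carries the signal from EGFR to PI3-kinase, which had 0.513, 0.899 and 0.889 FPKM at 0 h and 3.88, 2.60 and 2.75 FPKM at 24 h (1.497 ± 0.23, adjusted p = 1.65e-04). The most abundant, GRB2, the adaptor that links the receptors to SOS and RAS, had 95.1 FPKM at 0 h and 84.4 FPKM at 24 h (−0.17 ± 0.094, adjusted p = 0.140). By the looser rule 6 of the 15 were higher and 1 lower, 46.7% in all against 55.3% of all genes, with a median of 0.058 beside −0.051. Those higher were 40%, against 25% of all genes.

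The fourth list held 18 genes that attenuate the receptors or their signal. Of these, 17 were tested, and at 24 h 5 were called higher and 1 lower, 35.3% against 18.3% of all genes. Those called higher were 29.4%, against 8.76% of all genes. By the looser rule 8 were higher and 3 lower, 64.7% against 55.3%, and 47.1% were higher against 25%. The median was 0.41. ERRFI1 (MIG6), an inhibitor that binds the EGFR kinase, had 186, 182 and 185 FPKM at 0 h. It had 269, 233 and 215 FPKM at 1 h, and 379, 339 and 482 FPKM at 2 h. At 24 h it had 1022, 1197 and 1155.5 FPKM. The libraries of the 4 times did not overlap. ERRFI1 rose by 1.10 ± 0.13 at 2 h (adjusted p = 0.00734) and by 2.60 ± 0.13 at 24 h (adjusted p = 7.25e-08). The 2 h call was lost with the replicate number as a block (adjusted p = 0.0112), with no filter, with the 6 libraries alone, with TPM, where the log2 fold change was 0.0084, and in 5 of the 6 fits that left out a library, all but that without 2 h replicate 2. Over the 6 fits its change lay between 0.96 and 1.21 and the adjusted p reached 0.0604. The 24 h call was made in all 6 and also with TPM.

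SPRY1, a Sprouty inhibitor of RAS-ERK signalling, had 0.609 to 0.657 FPKM at 0 h, 2.09 to 3.68 FPKM at 2 h and 13.2 to 15.5 FPKM at 24 h. Its log2 fold change was 1.55 ± 0.19 at 2 h (adjusted p = 0.010014, by the looser rule) and 3.70 ± 0.19 at 24 h (adjusted p = 1.11e-07), and the libraries of these times did not overlap. SPRY4 had 11.7 to 14.3 FPKM at 0 h, 24.5 to 31.4 FPKM at 2 h and 35.2 to 39.5 FPKM at 24 h, and changed by 1.00 ± 0.15 at 2 h (adjusted p = 0.0249, by the looser rule) and by 1.44 ± 0.15 at 24 h (adjusted p = 1.04e-05). CBLB, a ubiquitin ligase of activated receptors, rose by 1.48 ± 0.36 at 24 h (adjusted p = 0.00414), a call lost without 0 h replicate 1, 0 h replicate 2 or 24 h replicate 3; over the 6 fits that left out a library the change ranged from 1.27 to 1.68. CBL, the sixth gene by size of change and named after its values were seen, rose by 1.07 ± 0.14, and by 0.92 without 24 h replicate 3, below the limit on the fold. SOCS4, a suppressor of cytokine signalling that acts on EGFR, was the gene called lower, with 8.87 to 9.50 FPKM at 0 h, 3.28 to 4.78 FPKM at 24 h and a log2 fold change of −1.09 ± 0.15, or −0.95 without 24 h replicate 2. Across the 4 lists, 40 of 48 genes were tested, and 7 were called higher and 1 lower at 24 h. In either direction this was 20%, close to the 18.3% of all genes, while 17.5% were called higher against 8.76% of all genes. By the looser rule 45% were higher, against 25% of all genes. These differences were not tested. At 2 h ERRFI1 was called alone, and 3 genes, ERRFI1, SPRY1 and SPRY4, passed the looser rule. With a library left out, SPRY1 missed the looser rule at 2 h without 0 h replicate 1 or 2 (adjusted p up to 0.0634) and with TPM (0.55, adjusted p = 0.105), and SPRY4 passed only without 2 h replicate 2 and turned to −0.063 with TPM. At 1 h none of the 40 was called.

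**Figure D5:**
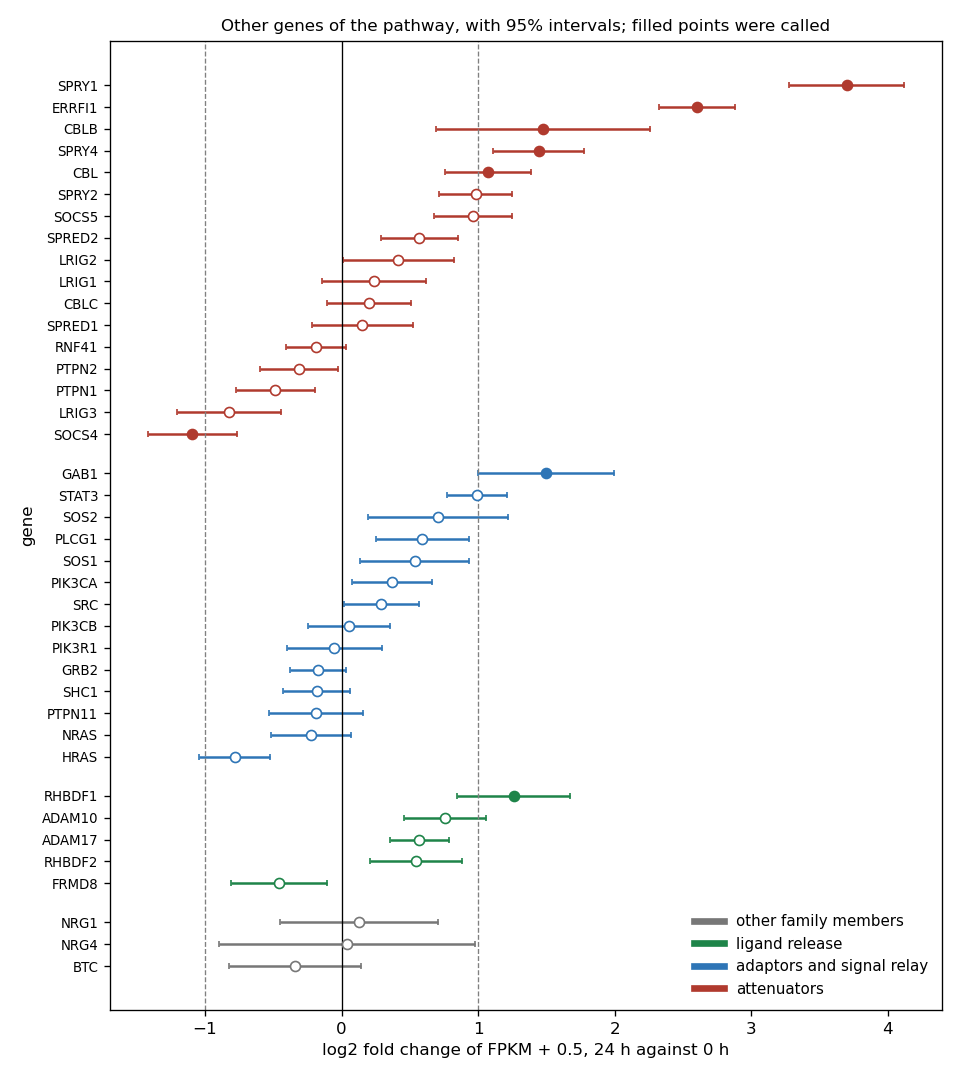
Log2 fold changes of FPKM + 0.5 at 24 h against 0 h (horizontal axis) for 39 of the 40 tested genes of 4 lists (vertical axis), with 95% intervals from limma; filled points were called. SPRY1 at 3.70 and ERRFI1 at 2.60 lie farthest from 0 and were also called with TPM, under which the calls of RHBDF1, GAB1, CBL, CBLB and SPRY4 were lost; SOCS4 at −1.09 was called lower.

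Genes whose levels ran most like those of each member over the 12 libraries were ranked by Pearson's r on log2(FPKM + 0.5) among 16679 others, as a description. The points share libraries and times. AREG ran with AREGB (0.995), OXR1 (0.975) and PIM1 (0.965), and PIM1, a kinase, had 4.45, 9.22, 13.7 and 22.5 FPKM on average at 0, 1, 2 and 24 h. EREG ran with HIAT1 (0.968), MORF4L1 (0.967) and UBE2W (0.958). UBE2W, a ubiquitin-conjugating enzyme, had 19.2, 21.9, 27.6 and 19.0 FPKM. TGFA ran with SEMA3C (0.993), SOCS7 (0.989) and CYFIP1 (0.987), and SEMA3C, a secreted semaphorin, had 13.1, 14.5, 16.1 and 35.1 FPKM. EGFR ran with ASAP2 (0.988) and the pseudogenes TTC3P1 (0.984) and MT2P1 (0.982), whose reads may be shared with their parent genes. HBEGF ran with CAV2 (0.891), NCEH1 (0.873) and FKBP14 (0.869). ERBB2 ran with ZNF789 (0.916), C4BPAP1 (0.898) and MGRN1 (0.887), and ERBB3 with PMM1 (0.960), CD97 (0.953) and TWF2 (0.945).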

How the data were processed

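HCT116 libraries of polyadenylated RNA (4 times, 3 replicates each) were read as strand-specific pairs of 100 bases. According to the study's methods the authors aligned reads to hg19 with Mapsplice, assembled each sample with Cufflinks, merged the models with Ensembl and estimated FPKM; the deposited FPKM values were used as they stand, with no scaling between libraries named in the sources used here. The submitters' processing notes name CASAVA 1.8.2. The authors deposited the length and other attributes of each transcript in a second table. Read counts were not analysed here, so depth per library is not taken from the files, no counting interval can be given, and the spread of 3 replicates measures precision.

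FPKM was summed by gene name over transcripts of class = or j. Gene names with more than 0.5 FPKM in at least 3 libraries were fitted with limma 3.58.1 in R 4.3.3 (lmFit, eBayes with trend) on log2(FPKM + 0.5), all 12 libraries together, with Benjamini-Hochberg adjustment over 16680 genes; p-values are two-sided. On simulated data of 16680 genes for 24 h against 0 h, 187 of 200 changed genes (93.5%) were called and no others. How far this holds for the measured libraries, where 3048 genes were called at 24 h against 0 h, was not tested. Other steps used Python 3.11.15, pandas 2.3.3 and scipy 1.17.1. Transcript types came from GENCODE release 44 on GRCh37.

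Replicate numbers come from the labels, which do not say what they share. Same-numbered libraries deviated together for 2 h and 0 h (correlations of 0.129 to 0.362) and for 1 h and 0 h (0.0954 to 0.340). For 24 h and 0 h the correlations ran from −0.00078 to 0.242. The fit with the number as a block is given beside 2 h results where it changes the call.

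The members and lists were chosen with earlier results of these data known. Named genes were all members, the other family genes, up to 5 called genes of each other list by size of change at 24 h with the most abundant of the list, 4 hypoxia targets, and the 3 genes most like each member; CBL, ADAM17, PTPN2, SRC and the markers named with values were added after their values were seen. Alternatives changed the pseudocount, filter, transcript classes, scaling, libraries fitted, replicate block and handling of AREGB, and left out each replicate in turn. The values of 1 tested pathway gene are not reported here; it is counted in its list.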

Additional observations from a re-analysis of the deposited data

Results flagged for a closer look

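The change from 2 h to 24 h is the difference between the effects of 24 h and of 2 h, since both are taken against the same 0 h libraries. It passed an adjusted p under 0.01 in limma for 4 members. With TPM the adjusted p was 0.365 for AREG, 0.574 for EREG, 0.0198 for TGFA and 0.0161 for EGFR, so that none of the 4 passed. In a fit of the 6 libraries alone it was 0.0132 for AREG and 0.0172 for EREG, and for EREG it also missed 0.01 without 2 h replicate 1, 2 h replicate 3 or 24 h replicate 1 (0.0114, 0.0129 and 0.0107). Its log2 value was 0.55 for AREG, −0.74 for EREG, 1.26 for TGFA and 1.31 for EGFR, and in each of these genes the 3 libraries at 24 h lay on that side of all 3 at 2 h.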

How the results depend on the processing

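Of 98 recomputed counts of calls and noncoding shares, 88 stayed within 1.5 times the reported count or within 1 SD, and 10 did not. With TPM, members called at 24 h fell from 3 to 0 against 0 h and from 2 to 0 against 2 h, and called pathway genes from 8 to 5. Of these 5, only ERRFI1, SPRY1 and SOCS4 were among the 8. With the looser rule 1 member was counted at 2 h, 4 at 24 h against 2 h, and 23 pathway genes at 24 h. The median change of the members' noncoding share from 0 h to 24 h, −0.013 percentage points, lay between −0.914 and 0.0021 when a library was left out.

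Among the recomputed fold changes of members 459 kept sign and call, 37 changed sign, 5 lost and 3 gained a call; none of the 37 belonged to a value called by the stricter rule. With TPM, where the medians of all genes were −0.53, −0.88 and −0.67, sign changes were AREG −0.11, EREG −0.22, TGFA −0.34, HBEGF −0.38 and EGFR −0.50 at 1 h, AREG −0.24, EREG −0.34, TGFA −0.66 and HBEGF −0.57 at 2 h, and EREG −0.85, HBEGF −0.39, ERBB2 −0.80 and ERBB3 −0.49 at 24 h; the 5 lost calls were also under TPM. The other sign changes were of values near 0. EREG and ERBB2 at 24 h and HBEGF at 24 h against 2 h became −0.0017, −0.047 and −0.027 with the study's transcript filter, −0.11, −0.0048 and −0.027 with class = alone, and −0.078, −0.077 and −0.057 when TPM was taken over transcripts of 300 bases or more. With a library left out, the ranges were −0.092 to 0.29 for HBEGF and −0.033 to 0.18 for EGFR at 1 h, −0.14 to 0.052 for EGFR and −0.18 to 0.013 for ERBB3 at 2 h, −0.11 to 0.19 for EREG and −0.094 to 0.079 for ERBB2 at 24 h, and −0.054 to 0.069 for HBEGF at 24 h against 2 h. The causes were not tested.

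Over all genes the calls at 2 h numbered 3, and 6 with a pseudocount of 0.1, 5 with the study's transcript filter or with TPM over at least 300 bases, 0 with no filter or with the 6 libraries alone, and 390 with TPM. With a library left out it was 0 in 4 of 6 fits, those without any 1 of the 0 h replicates or without 2 h replicate 1, and 6 without 2 h replicate 2. At 1 h the count was 1, and 31 with TPM. At 24 h against 2 h it was 2456, and 635 with TPM (559 higher). RHBDF1 was not called with the study's transcript filter, CBLB with that filter or none, and SOCS4 with class = alone.

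With the replicate number as a block, which paired the libraries of 2 h and 0 h only among the comparisons made (over all 18 pairs the correlations ran from −0.083 to 0.428), 0 members were called at 1 h and 2 h, 3 at 24 h against 0 h and 2 against 2 h, and 8 pathway genes at 24 h. At 2 h EREG then had an adjusted p of 0.0469 and ERRFI1 one of 0.0112, and it changed no other call of a member or pathway gene at 1 h or 2 h. At 24 h against 0 h PTPN2 and SRC passed the looser rule with the block (adjusted p = 0.0390 and 0.0489); both were named after their values were seen.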

Other observations

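Transcripts on the strand opposite EREG, 2 of class x, were outside the sums above. Their summed level was 1.04 to 1.20 FPKM at 0 h, 0.562 to 2.11 FPKM at 1 h, 0.919 to 9.14 FPKM at 2 h and 0.523 to 3.00 FPKM at 24 h, or 0.840% ± 0.095 (SD, n = 3) of EREG at 0 h and 1.91% ± 1.4 at 2 h. The ranges of the 4 times overlapped.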
